A study of Mus musculus with 11 samples.

Results

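The class I antigen presentation machinery was followed through 10 mouse genes. They were the heavy chain genes H2-K1 and H2-D1, the light chain gene B2m, the peptide transport and loading genes Tap1, Tap2 and Tapbp, the immunoproteasome genes Psmb8, Psmb9 and Psmb10, and the transactivator gene Nlrc5. They were chosen by name, through the Ensembl identifiers that carry these symbols in the GRCm38 annotation, and all 10 were found among the 52636 genes counted in every liver. All 10 passed the filter on low counts that left 17243 genes for testing. Each sample was RNA from 1 whole, untreated E15.5 fetal liver, and there were 11 livers of 4 genotypes on a C57BL/6N background. The double knockout of interest, Casp8-/- Tnfr1-/-, lacked caspase-8 and the TNF receptor TNFR1 and had 3 livers. Its controls were 2 livers that lacked only TNFR1 (Tnfr1-/-), 3 livers that lacked caspase-8 together with MLKL, the executioner of necroptosis (Casp8-/- Mlkl-/-), and 3 wild-type (WT) livers. All knockout alleles were germline and affected every cell type of the liver.

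MHC class I molecules display short peptides from inside the cell to CD8 T cells and NK cells. A heavy chain, encoded by H2-K1 or H2-D1 in C57BL/6 mice, pairs with beta-2 microglobulin, and the pair is filled with peptides that the proteasome cuts, that the TAP1-TAP2 transporter pumps into the endoplasmic reticulum and that tapasin, the product of Tapbp, helps to load. Interferons induce the whole set, including PSMB8, PSMB9 and PSMB10, which replace the catalytic subunits PSMB5, PSMB6 and PSMB7 of the standard proteasome, and NLRC5, which is recruited to class I promoters through their X and Y boxes. The fetal liver at this stage is mainly a blood-forming organ, with erythroid and myeloid precursors among the hepatocytes.

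The promoters of the heavy and light chain genes carry the elements through which interferons and NLRC5 are known to act, and the stretches with these letters are shown for H2-K1 and B2m (RefSeq, GRCm38.p6). The H2-K1 stretch is on the minus strand at chr17:34000349-34000462, from base -115 to base -2 relative to the RefSeq start of the gene, and the B2m stretch is on the plus strand at chr2:122147543-122147648, from base -144 to base -39. Both are written 5′ to 3′ in the direction of the gene. Capitals mark, in this order, a κB-type match (GGGATTCC, in H2-K1 only), an ISRE-type match (GAANNGAAA, here as its reverse complement, in H2-K1, and in B2m a form with GAAA on both sides of the NN), TGACG of the X2 box and ATTGG of the Y box.
H2-K1: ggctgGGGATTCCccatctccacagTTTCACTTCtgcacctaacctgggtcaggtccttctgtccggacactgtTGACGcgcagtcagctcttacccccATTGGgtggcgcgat
B2m: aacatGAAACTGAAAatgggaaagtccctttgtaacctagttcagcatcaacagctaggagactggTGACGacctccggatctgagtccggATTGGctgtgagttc
The ISRE-type match, TGACG and ATTGG stood in the same order in both genes, with ATTGG nearest to the start, and H2-K1 had its κB-type match farther upstream of these. Upstream windows of 250 bases were found for 8 of the 10 genes, all but Tap2 and Nlrc5, and both strands were searched; none of these motifs contains another. TGACG was found in 5 of the 8 windows (H2-K1, H2-D1, B2m, Tap1 and Psmb9) and in 17.9% of 27025 promoter windows, and ATTGG in 6 of 8 (all but Psmb8 and Psmb10) and in 34.5% of windows. GGGATTCC occurred in H2-K1 and H2-D1 and in 0.873% of windows, GAANNGAAA in the same pair and in 6.34%, the longer form in B2m and in 3.04%, and a STAT-type palindrome, TTCNNNGAA, in Psmb8 and in 7.18%. The H2-K1 and H2-D1 windows were 87.4% identical over 190 aligned bases, so their matches are not separate observations. Tap1 and Psmb9 run in opposite directions, and the RefSeq starts used for these windows have 225 bases between them (chromosome 17, 34187331 to 34187555), and their TGACG and ATTGG matches are the same bases read on each strand. A match describes letters in a window and not a bound site.

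Between 23129212 and 35819339 reads were counted on genes per liver. Levels are given as CPM, counts scaled to library sizes that edgeR's TMM method normalized, and calls rest on edgeR's quasi-likelihood test, with the 4 genotypes in 1 fit and Benjamini-Hochberg adjusted p-values over all 17243 genes held to a threshold of 0.05. A pair of libraries stood apart. Casp8-/- Tnfr1-/- replicate 3 correlated with the other livers at r = 0.840 to 0.891 across genes, held 1825 CPM of 16 striated muscle markers (17.6 to 44.7 in the other 10 livers), and was the one liver with Xist (3409 CPM, at most 0.570 elsewhere), so sex differs between this liver and the rest. Casp8-/- Mlkl-/- replicate 1 held 237906 CPM of 10 hepatocyte markers and 2867 CPM of 15 macrophage markers, against 53860 to 112040 and 1030 to 1380 in the other 10 livers. Results are therefore also given without both. Casp8 counts were lower in the 6 Casp8-/- livers (7.82 to 21.9 CPM) than in the other 5 (27.7 to 33.9 CPM). Mlkl was at 0.730 to 1.22 CPM in Casp8-/- Mlkl-/- livers. Tnfrsf1a, the gene for TNFR1, did not separate Tnfr1-/- livers (49.8 and 50.5 CPM) from WT (47.1 to 53.4 CPM). It was at 76.0 to 425 CPM in Casp8-/- Tnfr1-/- and 45.4 to 77.2 CPM in Casp8-/- Mlkl-/- livers. Whole-gene counts therefore do not check the loss of TNFR1. Hepatocyte and erythroid markers were abundant in every liver, as the tissue label says.

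The 10 genes were higher in Casp8-/- Tnfr1-/- livers than in each control genotype, although not every difference passed the test. Against WT, 9 of the 10 rose, all but Psmb10, where 5.10% of tested genes were called higher. Against Tnfr1-/- livers, 8 rose (all but Tap2 and Psmb10; background 2.05%), and against Casp8-/- Mlkl-/- livers 5 rose, namely Tap1, Tapbp, Psmb8, Psmb9 and Nlrc5 (background 1.54%). Those 5 were called in all 3 comparisons, as were 1.30% of tested genes; the same 3 double knockout livers enter every one of these comparisons. None of the 10 was called lower. Their median log2 fold change was 1.72 against WT, 1.82 against Tnfr1-/- and 1.28 against Casp8-/- Mlkl-/- livers, beside medians of -0.0015, -0.014 and -0.033 over all tested genes. In 9 of the 10 genes, again all but Psmb10, every Casp8-/- Tnfr1-/- liver lay above all 8 control livers, as in 7.43% of tested genes. Exact permutation of the log2 CPM values (two-sided, 3 livers against 8) gave p = 0.00606 for each of these 9, the smallest p possible, and p = 0.0303 for Psmb10. Without the pair of livers that stood apart, all 10 were called against each of the 3 control genotypes, in a setting where far more genes were called higher in all: 17.8% against WT, 13.9% against Tnfr1-/- and 12.0% against Casp8-/- Mlkl-/- livers. Single livers mattered to these counts: without WT replicate 2 or 3 the count against WT was 5 (1.65% or 1.57% of tested genes), and without WT replicate 2 that against Tnfr1-/- livers was 5 (1.27%). Without either of the Tnfr1-/- livers none was called against the other, although all 10 kept an unadjusted p under 0.05 by edgeR (0.158% and 0.200% of tested genes called higher). Against Casp8-/- Mlkl-/- livers 9 were called without replicate 1 of that genotype (3.03% of tested genes) and 1 without its replicate 2 or its replicate 3 (0.415% and 0.425%).

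**Figure D1:**
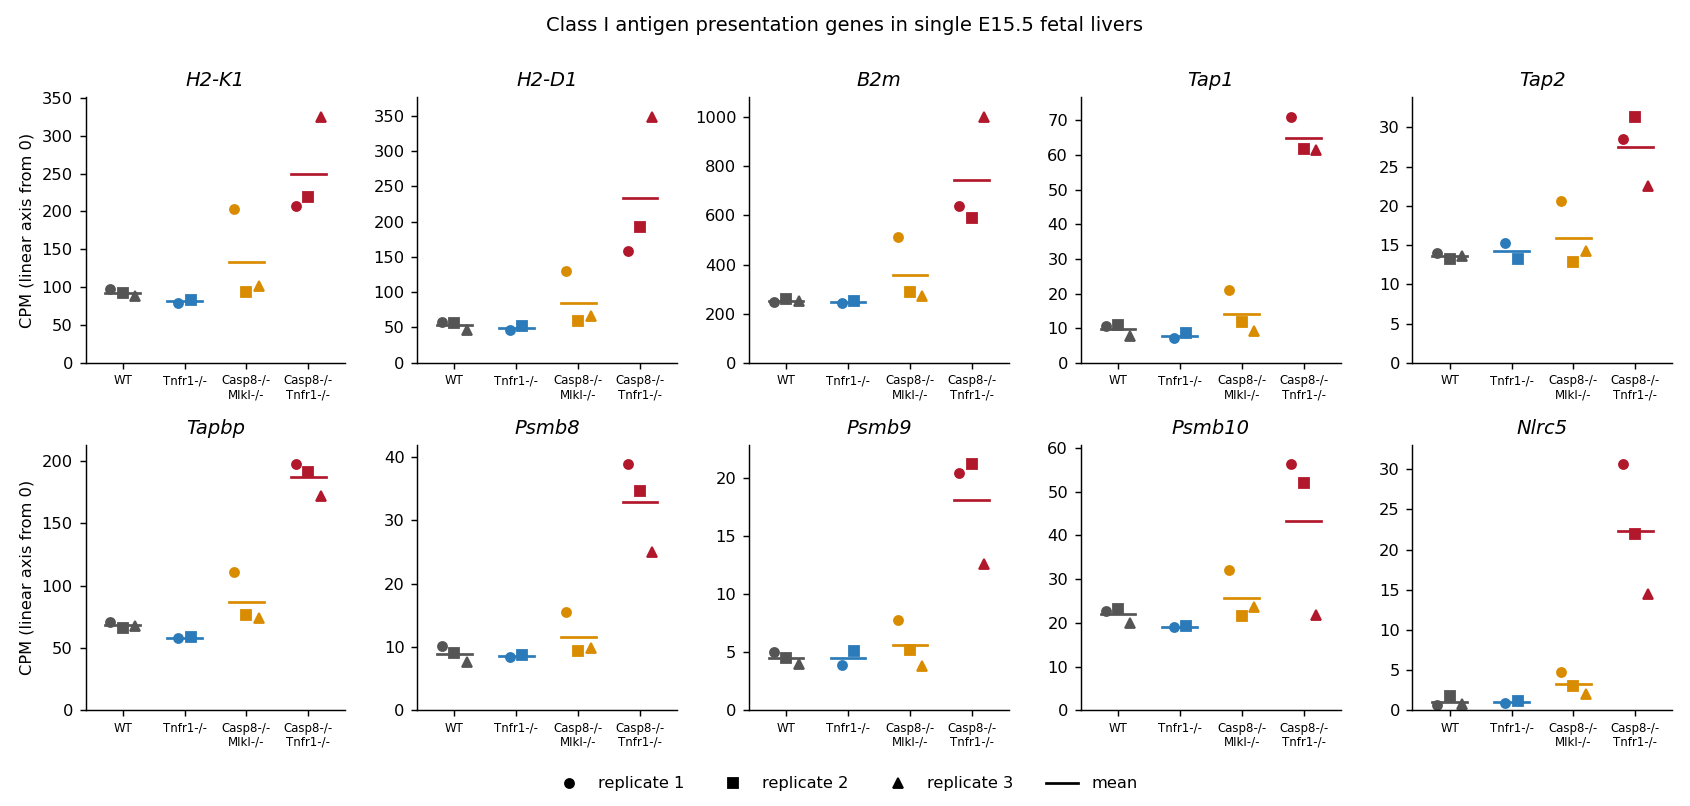
CPM of each of the 10 genes (linear axes from 0) in the 11 livers, grouped by genotype. Points are single livers, symbols give the replicate number and lines are group means. The 3 Casp8-/- Tnfr1-/- livers lie above the other 8 in 9 panels and overlap them in the Psmb10 panel.

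Whole livers mix cell types, and a change in the share of a cell type cannot be told apart here from a change in RNA per cell. The 11 neutrophil markers summed to 5359 to 14832 CPM in Casp8-/- Tnfr1-/- livers and 1156 to 3461 in the other 8. S100a8, S100a9, Ltf and Ngp, 4 of the 11, were above all 8 others in every Casp8-/- Tnfr1-/- liver, as were 7.43% of tested genes. S100a8 and S100a9 made up 9766 of the 14832 CPM in replicate 3, and without both genes the sums were 2955 to 5066 CPM in Casp8-/- Tnfr1-/- livers and 779 to 2105 in the others. Mpo, Elane, Prtn3 and Ctsg went the other way in replicate 3, where they were below all 8 other livers. In Casp8-/- Tnfr1-/- replicates 1 and 2 these genes were above all 8. Against WT, 4 of the 11 markers were called higher, beside 5.10% of tested genes. Against Tnfr1-/- livers 1 was (2.05% of tested genes), and against Casp8-/- Mlkl-/- livers none was (1.54%). None of the 11 was at 0 in every liver, and their part in the class I result was not tested. The 15 macrophage markers summed to 1329 to 1380 CPM in Casp8-/- Tnfr1-/- livers. The sums were 1030 to 1309 in WT and Tnfr1-/- livers and 1238 to 2867 in Casp8-/- Mlkl-/- livers. Against WT 2 of the 15 were called higher and 2 lower, beside 879 and 121 of 17243 tested genes. The sum in Casp8-/- Tnfr1-/- livers rests on Lyz2, which neutrophils also express. Without it the other 14 macrophage markers summed to 548 to 770 CPM in Casp8-/- Tnfr1-/- livers, below the 862 to 1030 in WT and Tnfr1-/- livers. Of the 15, 7 (Adgre1, Cd5l, Clec4f, Timd4, Vsig4, Marco and Slc40a1) were below all 5 of these livers in every Casp8-/- Tnfr1-/- liver, and Cd68 and Lyz2 were above them. The share of all tested genes with these patterns against the 5 livers, or below all 8 others in replicate 3, was not counted. Clec4f was also low in Casp8-/- Mlkl-/- livers (5.47, 0.203 and 0.726 CPM, against 10.5 to 13.9 in WT and Tnfr1-/- livers). Vsig4 was low in replicates 2 and 3 of that genotype, whereas Adgre1, Timd4 and Marco were above all WT and Tnfr1-/- livers in all its livers. T and NK cell markers were near 0 throughout: all 10 together reached 17.8 CPM at most, and 6 stayed under 1 CPM in every liver.

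H2-K1 (ENSMUSG00000061232, chromosome 17, 33996017 to 34000347) and H2-D1 (ENSMUSG00000073411, chromosome 17, 35262730 to 35267499) encode the peptide-binding heavy chains. H2-K1 measured 96.9, 92.7 and 88.5 CPM in WT, 79.6 and 82.4 in Tnfr1-/-, 203, 93.7 and 101 in Casp8-/- Mlkl-/-, and 207, 219 and 325 in Casp8-/- Tnfr1-/- livers, each genotype in order of replicate number. Casp8-/- Mlkl-/- replicate 1 came within a few CPM of the lowest Casp8-/- Tnfr1-/- liver, while the other 7 controls stayed near 100. The log2 fold change of H2-K1 was 1.43 (standard error 0.294) against WT and 1.63 (0.341) against Tnfr1-/- livers, and 0.91 (0.290) for Casp8-/- Mlkl-/- as the control (edgeR adjusted p = 0.0214, 0.0407 and 0.178). H2-D1 measured 57.9, 56.1 and 46.4 CPM in WT, 46.3 and 51.6 in Tnfr1-/-, 130, 58.9 and 65.8 in Casp8-/- Mlkl-/-, and 159, 193 and 348 in Casp8-/- Tnfr1-/- livers. Its order of livers resembled that of H2-K1, with the same liver highest. Its log2 fold changes were larger in size, at 2.12 (0.357), 2.25 (0.419) and 1.46 (0.350) in the same order of controls, with adjusted p = 0.00881, 0.0245 and 0.0787. The heavy chains share sequence, and 9.63% of the 50-base stretches of H2-K1 and 12.8% of those of H2-D1 recur in other genes.

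B2m (ENSMUSG00000060802, chromosome 2, 122147686 to 122153083), the light chain shared by all class I molecules, lies outside the MHC and holds no stretch that recurs elsewhere. It measured 248, 258 and 253 CPM in WT, 244 and 253 in Tnfr1-/-, 513, 287 and 272 in Casp8-/- Mlkl-/-, and 638, 588 and 1002 in Casp8-/- Tnfr1-/- livers. The 5 livers with intact Casp8 lay within 244 to 258 CPM, and all 3 Casp8-/- Mlkl-/- livers were above them. B2m was 2.93-fold higher than in WT (log2 fold change 1.55, standard error 0.279, adjusted p = 0.0116), 2.99-fold higher than in Tnfr1-/- (adjusted p = 0.0364) and 2.08-fold higher than in Casp8-/- Mlkl-/- livers, the last not called (adjusted p = 0.103). For both heavy chains and B2m, the difference from Casp8-/- Mlkl-/- livers was called without Casp8-/- Mlkl-/- replicate 1, where 3.03% of tested genes were called higher. It was not called without replicate 2 or replicate 3 of that genotype instead (0.415% and 0.425%). The heavy chains did not keep one ratio. Per base of exon, H2-D1 ran at 0.409 to 0.509 of H2-K1 in the 8 control livers and at 0.600, 0.688 and 0.837 in Casp8-/- Tnfr1-/- livers, whereas H2-K1 ran at 0.170 to 0.208 of B2m in the controls and 0.170, 0.195 and 0.170 in Casp8-/- Tnfr1-/- livers. These ratios were looked at after the levels had been seen and are given as a description.

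Tap1 (ENSMUSG00000037321, chromosome 17, 34187553 to 34197225) and Tap2 (ENSMUSG00000024339, chromosome 17, 34203527 to 34216321) together encode the peptide transporter. Tap1 measured 10.6, 10.8 and 7.85 CPM in WT, 7.08 and 8.58 in Tnfr1-/-, 21, 11.8 and 9.06 in Casp8-/- Mlkl-/-, and 71.0, 61.8 and 61.5 in Casp8-/- Tnfr1-/- livers. The 3 Casp8-/- Tnfr1-/- livers were close to each other and far above every control. Tap1 rose 6.64-fold against WT (log2 fold change 2.73, standard error 0.297, adjusted p = 8.76e-04), 8.27-fold against Tnfr1-/- (3.05, 0.355, 0.00228) and 4.65-fold against Casp8-/- Mlkl-/- livers (2.22, 0.290, 0.00569). Tap2 measured 13.9, 13.2 and 13.6 CPM in WT, 15.2 and 13.3 in Tnfr1-/-, 20.7, 12.9 and 14.3 in Casp8-/- Mlkl-/-, and 28.6, 31.4 and 22.5 in Casp8-/- Tnfr1-/- livers. Here the groups were separate but close, and Casp8-/- Mlkl-/- replicate 1 nearly reached Casp8-/- Tnfr1-/- replicate 3. Tap2 rose 2.02-fold against WT (log2 fold change 1.02, standard error 0.204, adjusted p = 0.0196) and was 1.93-fold and 1.72-fold higher than in Tnfr1-/- and Casp8-/- Mlkl-/- livers, neither called (adjusted p = 0.0761 and 0.101). As a ratio of counts per base of exon, Tap1 to Tap2 was 0.542 to 1.18 in the 8 controls and 2.89, 2.30 and 3.18 in Casp8-/- Tnfr1-/- livers, so Tap1 and Tap2 did not keep one ratio. This ratio too was chosen with the levels in view.

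Tapbp (ENSMUSG00000024308, chromosome 17, 33915899 to 33929292) encodes tapasin, which bridges TAP and empty class I molecules. It measured 70.9, 65.8 and 68.0 CPM in WT, 57.7 and 58.8 in Tnfr1-/-, 111, 76.7 and 74.0 in Casp8-/- Mlkl-/-, and 197, 191 and 172 in Casp8-/- Tnfr1-/- livers. The Casp8-/- Tnfr1-/- livers agree within a narrow range, and every Casp8-/- Mlkl-/- liver was above every WT and Tnfr1-/- liver. Tapbp had the smallest standard errors of the 10 genes, and it rose 2.74-fold against WT (log2 fold change 1.45, standard error 0.165, adjusted p = 0.0011), 3.21-fold against Tnfr1-/- (adjusted p = 0.00207) and 2.14-fold against Casp8-/- Mlkl-/- livers (adjusted p = 0.0107). Of its exon bases, 904 overlap Gm19412 on the opposite strand and 149 overlap Zbtb22 on the same strand. Whether strand was used in counting is not given in the sources used here.

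**Figure D2:**
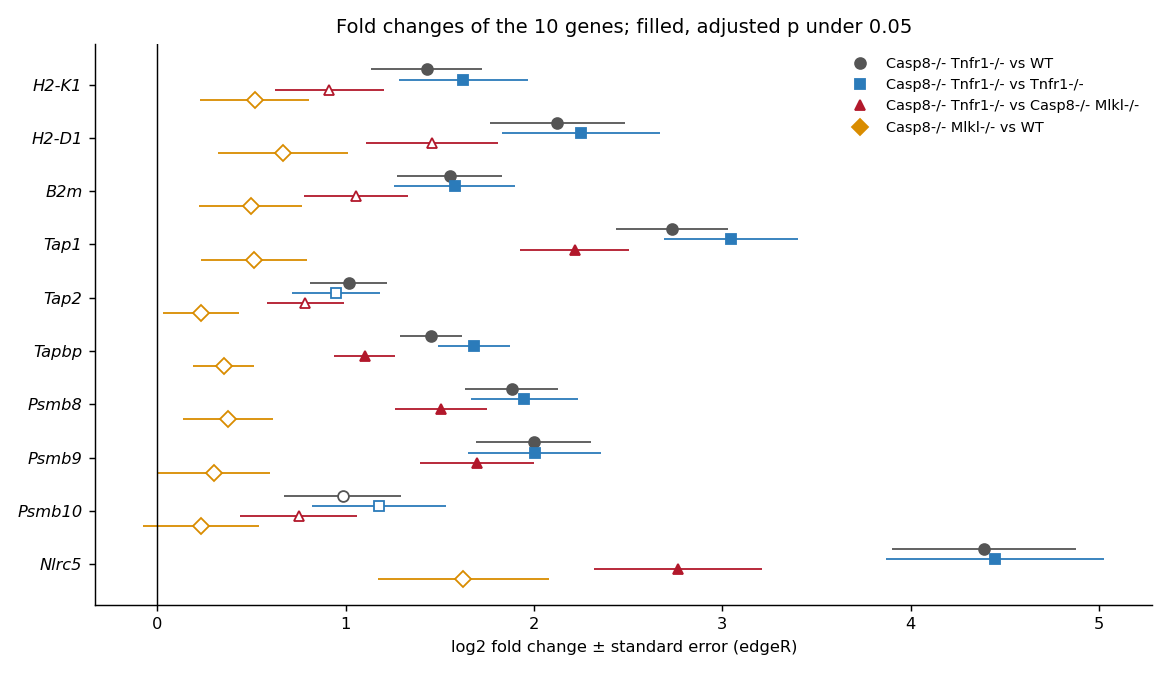
Log2 fold changes with standard errors from edgeR for the 10 genes (rows) in 4 comparisons (symbols), filled where the adjusted p was under 0.05. Nlrc5 and Tap1 lie farthest to the right, Psmb10 has no filled symbol, and no Casp8-/- Mlkl-/- against WT symbol is filled.

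Psmb8 (ENSMUSG00000024338, chromosome 17, 34197721 to 34201454), Psmb9 (ENSMUSG00000096727, chromosome 17, 34181987 to 34187764) and Psmb10 (ENSMUSG00000031897, chromosome 8, 105935735 to 105938444) encode the inducible catalytic subunits of the proteasome. Psmb8 measured 10.101, 9.10 and 7.57 CPM in WT, 8.34 and 8.70 in Tnfr1-/-, 15.53, 9.36 and 9.86 in Casp8-/- Mlkl-/-, and 38.9, 34.7 and 25.1 in Casp8-/- Tnfr1-/- livers. Psmb9 measured 5.03, 4.53 and 3.98 CPM in WT, 3.88 and 5.13 in Tnfr1-/-, 7.78, 5.14 and 3.78 in Casp8-/- Mlkl-/-, and 20.4, 21.1 and 12.6 in Casp8-/- Tnfr1-/- livers. For both genes the 3 double knockout livers exceeded all controls, and replicate 3 was the lowest of them. Psmb8 rose 3.69-fold against WT (log2 fold change 1.88, standard error 0.246, adjusted p = 0.0025), 3.86-fold against Tnfr1-/- (adjusted p = 0.00787) and 2.84-fold against Casp8-/- Mlkl-/- livers (adjusted p = 0.016). Psmb9 rose 3.997-fold against WT (log2 fold change 1.999, standard error 0.304, adjusted p = 0.00571), 4.01-fold against Tnfr1-/- (adjusted p = 0.0194) and 3.24-fold against Casp8-/- Mlkl-/- livers (adjusted p = 0.0243). In GENCODE M21, where Psmb9 starts farther upstream than in RefSeq, exons of Psmb9 and Tap1 overlap by 212 bases on opposite strands. Exons of Psmb8 and Gm20496 overlap by 498 bases, also on opposite strands.

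Psmb10 measured 22.6, 23.1 and 19.999 CPM in WT, 18.96 and 19.3 in Tnfr1-/-, 32.1, 21.6 and 23.6 in Casp8-/- Mlkl-/-, and 56.3, 51.9 and 21.8 in Casp8-/- Tnfr1-/- livers. Of the Casp8-/- Tnfr1-/- livers, 2 were above all controls and replicate 3 was inside their range. Its log2 fold changes of 0.98 (standard error 0.31) against WT, 1.18 (0.356) against Tnfr1-/- and 0.75 (0.308) against Casp8-/- Mlkl-/- livers were not called (adjusted p = 0.0933, 0.141 and 0.289). Without Casp8-/- Tnfr1-/- replicate 3, Psmb10 was called against WT, Tnfr1-/- and Casp8-/- Mlkl-/- livers (log2 fold changes 1.31, 1.499 and 1.07, adjusted p = 0.0013, 0.00196 and 0.00753), where 7.28%, 4.46% and 2.83% of tested genes were called higher. In that liver all 14 genes of the constitutive 20S core were also the lowest of the 3 Casp8-/- Tnfr1-/- livers, as were 7 of the 10 class I genes, beside 49.4% of all tested genes. H2-K1, H2-D1 and B2m were the highest there.

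Ratios within a liver set each inducible subunit against the standard subunit that it replaces and do not depend on library scaling. Per base of exon, Psmb8 to Psmb5 was 1.98, 1.76 and 1.66 in WT, 2.04 and 2.99 in Tnfr1-/-, 5.69, 2.87 and 2.60 in Casp8-/- Mlkl-/-, and 13.1, 9.31 and 10.7 in Casp8-/- Tnfr1-/- livers. Psmb9 to Psmb6 was 0.0242 to 0.0495 in the 8 controls and 0.111, 0.112 and 0.138 in Casp8-/- Tnfr1-/- livers, and Psmb10 to Psmb7 was 0.178 to 0.374 in the controls and 0.545, 0.522 and 0.298 in Casp8-/- Tnfr1-/- livers. The first and second pair separated the 3 livers from all 8 controls, and the third did not, since replicate 3 fell below Casp8-/- Mlkl-/- replicate 1. In Casp8-/- Tnfr1-/- replicate 3 the standard subunits were low too. Psmb6 had 947 reads there (2292 to 3439 in the 8 controls) and Psmb7 1133 (1877 to 3453), not scaled to depth. These low denominators raise its ratios, and the 11 core genes used below were likewise lowest there of the 3 livers. Between the 3 livers and the 8 others the geometric mean ratios differed 4.38-fold, 4.09-fold and 1.99-fold (log2 differences 2.13, 2.03 and 0.996). Exact two-sided permutation tests gave p = 0.00606, 0.00606 and 0.0121 (Benjamini-Hochberg over the 3 pairs 0.00909, 0.00909 and 0.0121). Psmb5 had only 1.25 to 2.77 CPM, and 54.1% of its 50-base stretches recur in other genes such as Psmb5-ps, so the level of the Psmb8 to Psmb5 ratio is not a ratio of subunits. Set instead against the 11 other 20S core genes summed per length, an alternative chosen after seeing the data, Psmb8, Psmb9 and Psmb10 were 3.72-fold, 4.06-fold and 1.97-fold higher.

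**Figure D3:**
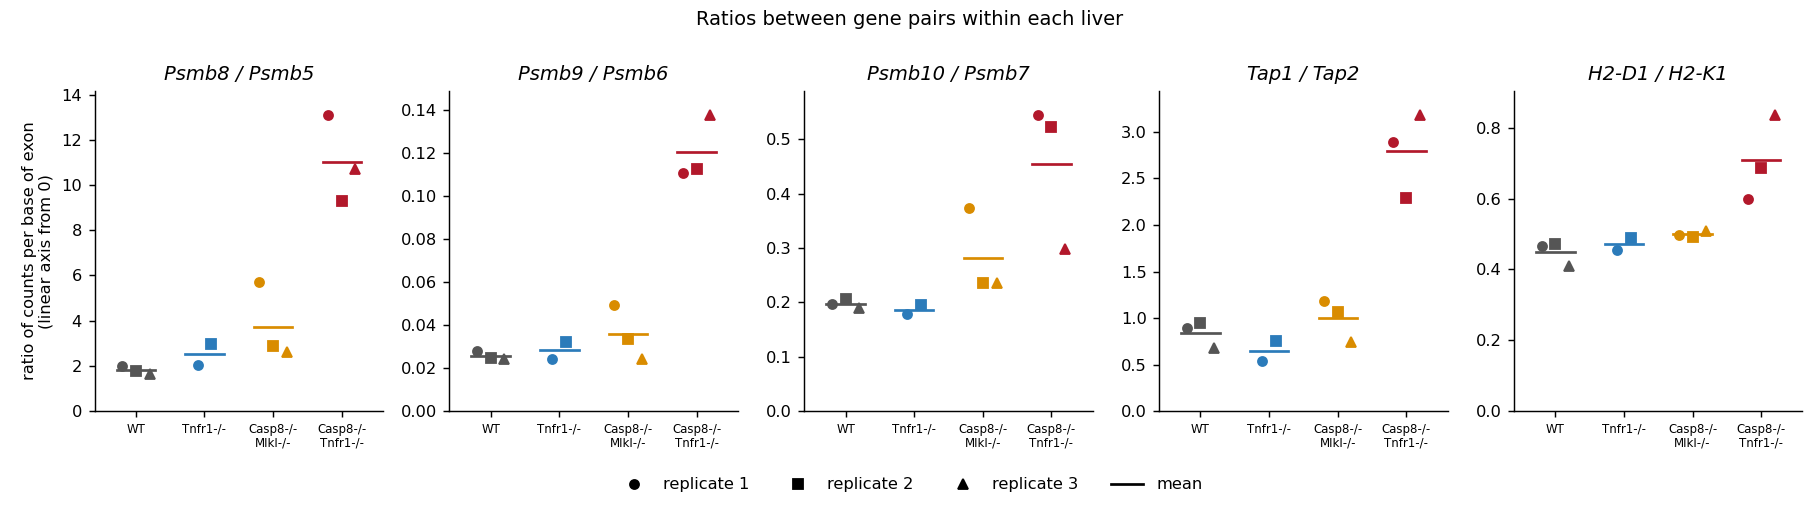
Ratios of counts per base of exon between pairs of genes (linear axes from 0) in the 11 livers, with group means as lines and replicate numbers as symbols. The 3 Casp8-/- Tnfr1-/- livers lie above the other 8 for Psmb8 to Psmb5, Psmb9 to Psmb6, Tap1 to Tap2 and H2-D1 to H2-K1, and 2 of them do for Psmb10 to Psmb7.

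Nlrc5 (ENSMUSG00000074151, chromosome 8, 94434356 to 94527272), the class I transactivator, had the largest fold changes of the 10 genes in each comparison with Casp8-/- Tnfr1-/- livers. It measured 0.691, 1.76 and 0.749 CPM in WT, 0.875 and 1.18 in Tnfr1-/-, 4.78, 3.02 and 2.06 in Casp8-/- Mlkl-/-, and 30.6, 21.96 and 14.5 in Casp8-/- Tnfr1-/- livers. The WT values rest on 18 to 42 reads and the Casp8-/- Tnfr1-/- values on 254 to 1003 reads. The 4 genotypes fell into 3 levels that did not overlap, with WT and Tnfr1-/- livers lowest, Casp8-/- Mlkl-/- livers between and Casp8-/- Tnfr1-/- livers highest. Nlrc5 rose 20.96-fold against WT (log2 fold change 4.39, standard error 0.488, adjusted p = 9.81e-04), 21.8-fold against Tnfr1-/- (4.45, 0.580, 0.00419) and 6.80-fold against Casp8-/- Mlkl-/- livers (2.77, 0.445, 0.016). Only 0.338% of its 50-base stretches are found in annotated transcripts of another gene. That gene, 9330175E14Rik, overlaps 78 of its exon bases on the opposite strand.

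Between the control genotypes no gene of the 10 was called. Casp8-/- Mlkl-/- livers had positive estimates against WT for all 10, from 0.23 to 1.62 on the log2 scale with a median of 0.44 (all tested genes 0.028), and 0.00580% of tested genes, 1 gene, were called higher; the same share was called against Tnfr1-/- livers, where the 10 gave 0.16 to 1.68. By edgeR, Nlrc5 had the only unadjusted p under 0.05 against WT (log2 fold change 1.62, standard error 0.454, adjusted p = 0.736). Against Tnfr1-/- livers, Nlrc5, Tapbp and Tap1 had one, and none held after adjustment. In H2-D1, B2m, Tapbp and Nlrc5 all 3 Casp8-/- Mlkl-/- livers lay above all 5 WT and Tnfr1-/- livers, a pattern seen in 5.61% of tested genes. Replicate 1 was the highest of the 8 control livers for all 10 genes, as it was for 33.7% of tested genes. It is the liver with high hepatocyte and macrophage markers, and it also held 3461 CPM of the neutrophil markers, against at most 1677 in any WT or Tnfr1-/- liver; their part in the class I levels was not tested. Without it, 9 of the 10 estimates against WT were positive, with a median of 0.10, and Nlrc5 had the largest at 1.26. Without that liver and Casp8-/- Tnfr1-/- replicate 3 together, 1 of the 10 was called against WT (Nlrc5, 1.29), where 3.23% of tested genes were called higher, and 1 against Tnfr1-/- livers (Tapbp), where 1.19% were. In Tnfr1-/- against WT livers the log2 fold changes were -0.32 to 0.07, with none called and no unadjusted p under 0.05.

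Set on one scale per length (CPM per kilobase of exon, using the widths deposited with the counts), the order of levels in WT livers was B2m (mean 294), H2-K1 (56.5), H2-D1 (25.4), Tapbp (23.6), Psmb10 (16.7), Psmb8 (5.48), Tap2 (3.95), Psmb9 (3.34), Tap1 (3.30) and Nlrc5 (0.131). The WT ranges of H2-D1 and Tapbp overlapped, as did those of Psmb9 and Tap1, and the other neighbors were separate. In Casp8-/- Tnfr1-/- livers the order was B2m (864), H2-K1 (152), H2-D1 (111), Tapbp (64.6), Psmb10 (33.0), Tap1 (21.9), Psmb8 (20.2), Psmb9 (13.4), Tap2 (7.98) and Nlrc5 (2.75). The first 5 places and the last were held by the same genes, and Tap1 stood above Tap2 there, with ranges that did not overlap. H2-K1 and H2-D1, and Psmb10, Tap1, Psmb8 and Psmb9 from one to the next, had overlapping ranges in these 3 livers.

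Other class I and class I related genes were examined as a list of 30, of which 25 were matched and 16 tested. Against WT 4 rose (H2-Q4, H2-T24, H2-T22 and H2-Q7), against Tnfr1-/- 2 (H2-T24 and H2-T22) and against Casp8-/- Mlkl-/- livers 3 (H2-T24, H2-T22 and H2-Q7), and none fell. Over all tested genes 5.10%, 2.05% and 1.54% were called higher in these comparisons. Medians of the log2 fold changes were 1.05, 0.68 and 0.57 in that order of controls. H2-T22, a nonclassical class I gene whose product is seen by some gamma-delta T cells, was at 28.2 to 28.7 CPM in Casp8-/- Tnfr1-/- livers and 11.04 to 17.8 in the 8 others, and H2-T24 at 84.0 to 126 against 19.9 to 58.1. H2-Q7, which encodes Qa-2, was at 9.35 to 9.58 CPM against 3.85 to 6.04. H2-Q10, the class I gene that hepatocytes secrete, measured 240 to 281 CPM in Casp8-/- Tnfr1-/- and 185 to 475 in the other livers, with its highest value in Casp8-/- Mlkl-/- replicate 1 (log2 fold change 0.03 against WT, adjusted p = 0.955). Hfe and Fcgrt, class I related genes for iron sensing and antibody transport, had log2 fold changes of -0.07 and -0.10 against WT (adjusted p = 0.913 and 0.872). Shared sequence is wider in this list, with 53.5% of the 50-base stretches of H2-T22, 26.5% of the stretches of H2-Q7 and 36.4% of those of H2-Q4 found in other genes.

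Of 17 partners that trim and load peptides, all tested, only Psme1 rose, against WT (log2 fold change 0.77, standard error 0.148, adjusted p = 0.0163) and Tnfr1-/- livers (0.86, adjusted p = 0.0306). That is 1 of 17 genes, near the 5.10% of all tested genes called higher against WT and beside 2.05% against Tnfr1-/- livers. Psme1 and Psme2 encode the interferon-inducible PA28 cap of the proteasome, and Psme1 was at 92.4 to 102 CPM in Casp8-/- Tnfr1-/- livers and 52.8 to 82.1 in the others, Psme2 at 17.1 to 18.8 and 8.62 to 14.4 (log2 fold change 0.69 against WT, adjusted p = 0.0603). Erap1, the aminopeptidase that trims peptides in the endoplasmic reticulum, and Tapbpl, a relative of tapasin, had log2 fold changes of 0.74 and 0.93 against WT (adjusted p = 0.115 and 0.112). The chaperones Calr, Canx and Pdia3 lay between -0.16 and 0.42. Over the 17 genes the median against WT was 0.29. None of the 14 constitutive 20S core genes and none of the 18 genes of the 19S regulator was called in any of the 6 comparisons, with medians against WT of -0.25 and -0.34 and ranges of -0.71 to -0.03 and -0.65 to 0.36. All 14 core estimates against WT were negative, and so were all 14 in Casp8-/- Mlkl-/- livers (median -0.25). Tnfr1-/- livers against WT had 1 positive estimate of the 14 (median -0.20). Casp8-/- Tnfr1-/- livers had 5 positive estimates against Tnfr1-/- (median -0.07) and 6 against Casp8-/- Mlkl-/- livers (median -0.008).

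**Figure D4:**
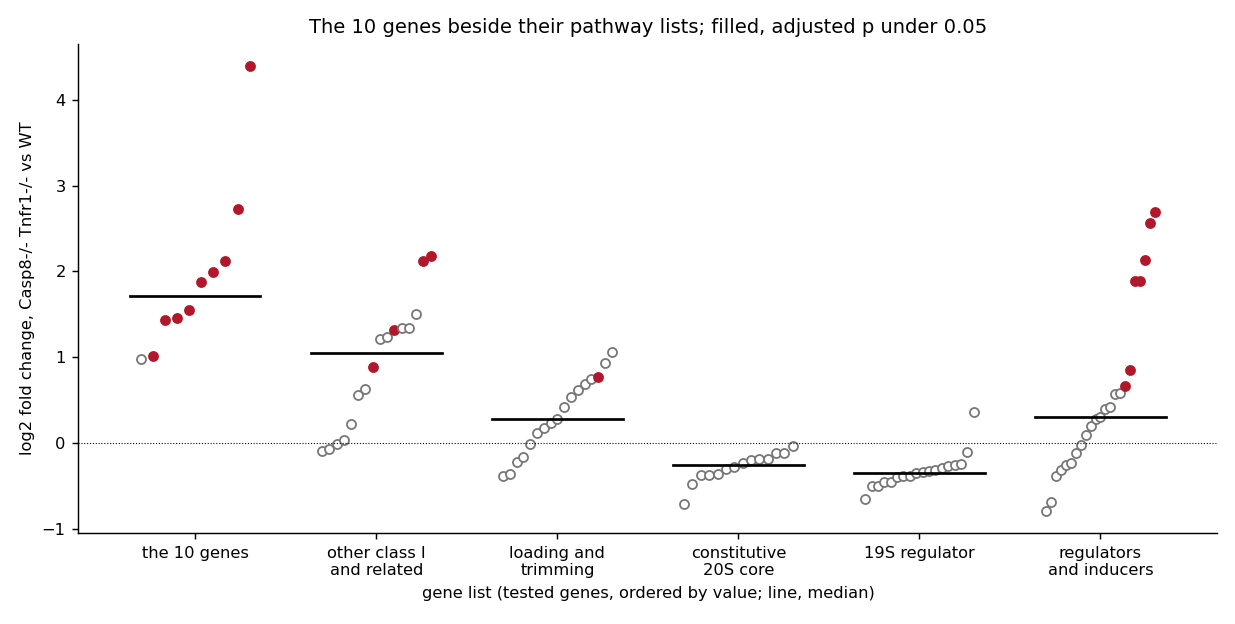
Log2 fold changes of Casp8-/- Tnfr1-/- against WT livers for the tested genes of 6 lists, ordered by value, filled where the adjusted p was under 0.05, with the median of each list as a line. The 10 class I genes lie at 0.98 to 4.39, and the constitutive 20S core lies below 0 with no filled point.

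Regulators of class I genes and their inducers formed a list of 28, with 23 tested. Against WT 7 rose (among them Stat2, Irf1, Irf9, Nfkb1, Ifngr2 and Tnf), against Tnfr1-/- 6, the same without Ifngr2, and against Casp8-/- Mlkl-/- livers 3 (among them Stat2 and Irf9). The shares of all tested genes called higher were 5.10%, 2.05% and 1.54%, in the same order of controls. The median against WT was 0.31. Stat2 and Irf9, which act together downstream of the type I interferon receptor, had log2 fold changes of 2.13 and 1.88 against WT (adjusted p = 0.00264 and 1.02e-04). Irf1, a transcription factor that binds class I promoters, was at 57.3 to 85.1 CPM in Casp8-/- Tnfr1-/- livers and 17.0 to 45.4 in the others (log2 fold change 1.89 against WT, adjusted p = 0.00966). The RFX and NF-Y subunits, which bind the X and Y boxes, did not pass the test in any comparison, with log2 fold changes between -0.69 and 0.09 against WT. Ciita, the class II counterpart of Nlrc5, had a log2 fold change of -0.79 against WT (adjusted p = 0.502) and at most 0.730 CPM.

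The interferon genes on the list of regulators and inducers had next to no reads, and other interferon genes were not examined. Ifng had at most 3 reads in any liver and 9 over all 11, Ifnb1 at most 1 and 3 over all, Ifnl2 a single read, and Ifna4 and Ifnl3 none, which at this depth does not show that they were absent. Tnf, itself an inducer of class I genes, had 38 to 151 reads in Casp8-/- Tnfr1-/- livers and 6 to 31 in the others, and rose against WT (log2 fold change 2.69, adjusted p = 0.0203) and Tnfr1-/- livers (3.40, adjusted p = 0.0306). On the receiving side, Cd8a had at most 3 reads in a liver and Cd8b1 none. Of 7 receptor genes of T and NK cells, Cd8a and Cd8b1 among them, 3 could be tested, and none was called in any of the 6 comparisons.

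The genes most like the 10 in pattern were sought over the 11 livers as the smallest root mean square difference between a gene's deviations of log2 CPM from the WT mean and the median deviation of the 10 genes. That median was 1.55, 1.67 and 1.65 in the Casp8-/- Tnfr1-/- livers, 0.91, 0.16 and 0.11 in the Casp8-/- Mlkl-/- livers and between -0.20 and 0.06 in the others. The 5 closest of 17233 other genes were Arhgdib (difference 0.138), Gsdmd (0.152), Cyfip2 (0.177), Ly6c2 (0.181) and Myo1f (0.185), beside 0.147 for Tapbp and 1.61 for Nlrc5 among the 10 and a median of 0.999 over the other genes. Arhgdib, a GDP dissociation inhibitor of blood cells, was at 328 to 429 CPM in Casp8-/- Tnfr1-/- livers and 109 to 192 in the others, and Gsdmd, the pore-forming gasdermin of pyroptosis, at 47.3 to 53.2 and 14.04 to 31.3. Ly6c2 encodes a surface marker of monocytes and Myo1f a myosin of leukocytes. All the values compared here share the same libraries, and the likeness is a description.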

How the data were processed

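RNA from 11 single fetal livers was sequenced by the authors, who aligned single-end 50-base reads to GRCm38 with GSNAP (named in the submitters' processing notes) and used uniquely mapped reads. The authors deposited, per liver, raw exonic read counts per Ensembl gene, the exonic width in bases, and RPKM values, which were not used here. The counting tool, annotation release and use of strand are not given in the sources used here, and the paper and the labels name different library kits and sequencers. GENCODE M21 gave names and positions.

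Counts were tested with edgeR 4.0.16 in R 4.3.3: filterByExpr (minimum count 10), TMM, glmQLFit and glmQLFTest on all 11 livers with a genotype term and no other, and Benjamini-Hochberg adjustment over 17243 genes. Log2 CPM used a prior count of 2. Total counts were 23129212 to 35819339 per liver; reads carry no molecular identifiers. Single values were compared by exact permutation, 3 livers against 8. limma 3.58.1 and DESeq2 1.42.0 were alternatives. The tests were checked on simulated counts. No 2 livers were alike within sampling noise (chi-square at least 6.25 per degree of freedom). The 10 genes, the gene lists and the alternatives were chosen with earlier results of these data known. Genes named are the 10, members of the lists (always with the list's counts) and the 5 genes closest in pattern. Whether same-numbered livers are related is not given by the labels. 1 member of the regulator list enters its counts and median and is not reported here by name.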

Additional observations from a re-analysis of the deposited data

How the results depend on the processing

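Percentages are the tested genes called higher in that setting. Across 22 alternatives no called difference of the 10 genes changed direction. The number of the 10 called higher against WT was 9 in the main analysis and 5 to 10 with each liver left out; it was 5 without WT replicate 2 or 3 (1.65% and 1.57%). Against Tnfr1-/- livers it was 8, and 2 when only the genotypes compared were fitted (0.316%), 0 without either Tnfr1-/- liver (0.158% and 0.200%; the lone liver is assumed to vary like the other groups) and 0 to 10 over all left-out livers, with 5 without WT replicate 2 (1.27%). Against Casp8-/- Mlkl-/- livers it was 5, and 8 by DESeq2's Wald test (4.55%), 10 by limma-voom with quality weights (1894 of 17243 genes), 0 with only the 2 genotypes fitted (0.0612%) and 1 to 9 with each liver left out (9 without Casp8-/- Mlkl-/- replicate 1, 3.03%, and 1 without replicate 2 or 3, 0.415% and 0.425%). Without both Casp8-/- Tnfr1-/- replicate 3 and Casp8-/- Mlkl-/- replicate 1 it was 10 (12.0%). This setting called 1 of the 10 each in Casp8-/- Mlkl-/- livers against WT (Nlrc5, 3.23%) and against Tnfr1-/- livers (Tapbp, 1.19%), and quality weights called 1 in the latter comparison (1.37%). Counts among control genotypes stayed at 0 with any single liver left out. The cause of these shifts was not tested, beyond the fewer livers in some fits. DESeq2's size factors, limma-voom without weights, robust estimation, the other filters and leaving out hemoglobin genes moved no count by over 1.5 times.

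Adding the replicate number to the model (replicate block) gave 9, 5 and 5 genes against WT, Tnfr1-/- and Casp8-/- Mlkl-/- livers (3.09%, 1.06% and 0.754%). Whether the numbers pair livers was not settled. Deviations from genotype means correlated at -0.297 to 0.275 for the 15 pairs with the same number and -0.284 to 0.309 for the 30 others. Of the 11 livers, 6 correlated best with one of their own number. Within a genotype of 2 or 3 livers such deviations depend on each other, so these values cannot decide it. The log2 ratio differences stayed at 2.0 to 2.30 (Psmb8 to Psmb5), 1.93 to 2.14 (Psmb9 to Psmb6) and 0.84 to 1.28 (Psmb10 to Psmb7) with each liver left out. The number of the 10 genes with an exact permutation p under 0.05 was 9 to 10. Depth limits mainly Nlrc5 in controls, the interferon genes and Psmb5.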
